A study of Mus musculus with 67 samples.

Results

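B cells from mice with experimental autoimmune encephalomyelitis (EAE) that were stimulated through the antigen receptor together with an antibody to Btla, and labelled as treated with interferon beta (IFNb), were set against the same cells stimulated with control Ig and labelled IFNb. The members are 6 of the 60 RNA-seq libraries of the study, chosen by their labels alone, 3 of anti-Btla + IFNb and 3 of control Ig + IFNb, each group numbered 1 to 3. The series holds 20 groups of 3 libraries, made from B cells and CD4+ T cells of naive mice and of mice immunized with a peptide of myelin oligodendrocyte glycoprotein (MOG), and asks how Btla engagement alters lymphocyte transcription. In both groups compared here the B cells came from spleen and from inguinal and brachial lymph nodes of C57BL/6 mice, adult animals of both sexes per the study's general methods, immunized with MOG peptide and carrying no engineered allele per the labels. They were enriched by negative selection and stimulated for 18 h, per the labels with beads bearing anti-IgM/G and either anti-Btla (clone 6A6) or control Ig. The label of each of the 6 libraries also names soluble IFNb. No source used here states the dose of IFNb, the day of disease at harvest or whether animals were pooled, nor that libraries with the same number came from the same mouse.

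Btla is an inhibitory receptor of B and T cells with tyrosine motifs that recruit the phosphatases Shp1 and Shp2, and its ligand is Hvem, the product of Tnfrsf14. Antibodies that engage Btla can trigger this signal directly and so restrain antigen receptor signalling. IFNb binds the receptor made of Ifnar1 and Ifnar2, which acts through the kinases Jak1 and Tyk2 to induce antiviral genes such as Isg15, Ifit1 and Mx1 in nearly all cells.

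The libraries labelled IFNb showed no detectable transcriptional interferon response, which bears on every value below. Control Ig + IFNb against control Ig without IFNb gave 0 called genes of 17007 tested at an edgeR adjusted p below 0.05 (0.0% called, 401 genes at an unadjusted p below 0.05), and anti-Btla + IFNb against anti-Btla without IFNb gave 0 (0.0%, 766 genes unadjusted). Isg15, a ubiquitin-like antiviral protein, had 8.45, 3.22 and 3.90 CPM (counts scaled for library size and composition) in control Ig + IFNb libraries 1 to 3, against 12.4, 2.68 and 4.18 CPM in control Ig libraries without IFNb. Ifit1, a sensor of viral RNA, had 5.62, 1.22 and 1.34 CPM with control Ig + IFNb, against 8.75, 1.11 and 1.97 CPM with control Ig. In both genes the groups overlapped, and the libraries labelled IFNb were lower in numbers 1 and 3 and higher in number 2. Both comparisons were also made in naive B cells, where the libraries labelled IFNb likewise gave 0 called genes (626 and 407 genes at an unadjusted p below 0.05). These contrasts were added after values had been seen. The name IFNb below is therefore that of the label, and whether the cells had been exposed to active IFNb was not tested.

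**Figure D1:**
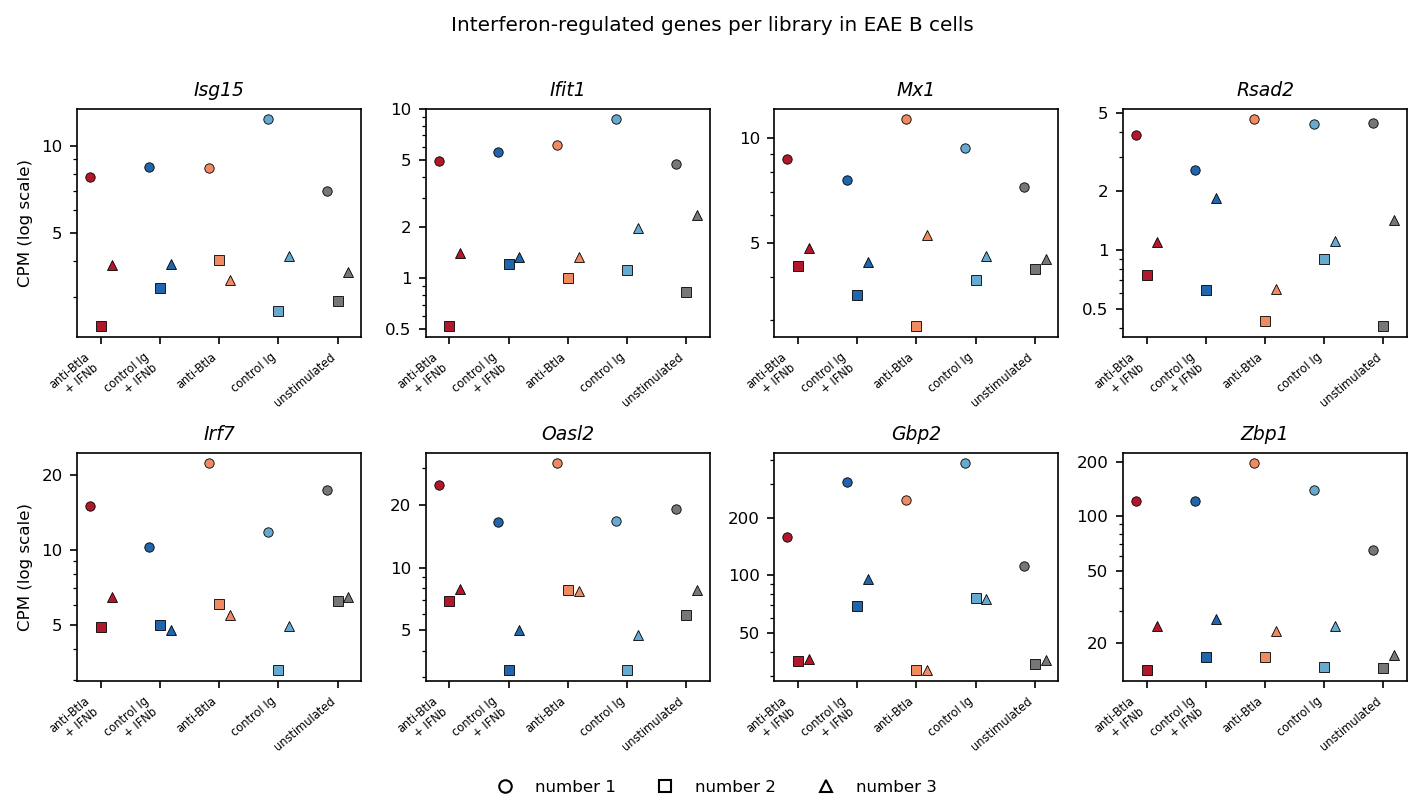
CPM on a log scale (y axis) of 8 interferon-regulated genes in the 15 EAE B cell libraries, by arm (x axis), with the library number as the symbol (circle 1, square 2, triangle 3). In each of the 8 genes the number 1 library is the highest in all 5 arms, and the arms labelled IFNb do not stand above the arms without it.

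Interferon-regulated genes followed the library number instead. Zbp1, a sensor of viral nucleic acid, had 121, 14 and 24.7 CPM in anti-Btla + IFNb libraries 1 to 3 and 121, 16.6 and 27 CPM in control Ig + IFNb libraries. The number 1 library was the highest in both groups and also among unstimulated cells, at 64.7 CPM against 14.5 and 17.1 CPM in numbers 2 and 3. The summed level of 15 interferon-inducible GTPases was 3312 to 5051 CPM in the 5 number 1 libraries of EAE B cells and 1150 to 1776 CPM in the 10 others, and that of 8 natural killer (NK) cell markers was 21.6 to 33.0 CPM against 3.95 to 8.19 CPM. The library number was a block in the test, and most list counts below were somewhat lower without the number 1 libraries (17 and 13 genes higher for B cell receptor signalling with and without them, for example) and are given for several lists. The 6 libraries held 13 to 50.7 M estimated counts with anti-Btla + IFNb and 33.2 to 61.0 M with control Ig + IFNb. Genes of the mitochondrial genome took 4.55 to 5.41% of the counts with anti-Btla + IFNb and 3.79 to 4.79% with control Ig + IFNb, and the part of this gap in the results was not tested.

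Anti-Btla changed a large share of the measured transcriptome, lowering genes of growth and of the activation response and raising genes of the resting B cell. Of 17007 genes tested, 5268 were called (31.0%), of which 2309 were higher (13.6%) and 2959 lower (17.4%) with anti-Btla + IFNb than with control Ig + IFNb. In 3067 genes (18.0%) all 3 anti-Btla + IFNb libraries lay above all 3 control Ig + IFNb libraries, and in 3499 (20.6%) all 3 lay below. The median log2 change over all genes tested was 0.03. Without the replicate block 2794 genes were called, and without the number 1 or the number 3 libraries 3029 and 3140. All 2794 genes called without the block were among the 5268. Counts of list members below are to be read against the shares of all genes tested, 13.6% higher and 17.4% lower. Positions below are on GRCm38, and changes are log2 ± SE.

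Genes of the Btla pathway came first. Btla itself (chr16:45224315-45257670) had 521, 579 and 537 CPM with anti-Btla + IFNb, against 315, 288 and 362 CPM with control Ig + IFNb. The groups did not overlap, and Btla rose by 0.77 ± 0.10 (adjusted p = 4.94e-05) to the level of unstimulated cells (mean 535 ± 91.0 CPM, SD, n = 3). Tnfrsf14, which encodes the ligand Hvem, had 9.48, 7.27 and 7.95 CPM against 9.23, 7.35 and 6.47 CPM, with overlapping groups and no call (0.12 ± 0.12, adjusted p = 0.51). Of 10 pathway genes tested, 5 were higher and 1 lower, and without the block, or without the number 1 libraries, 3 and 0. The lymphotoxin genes Ltb (1.37 ± 0.18) and Lta (0.77 ± 0.22), which belong to the cytokine family of Hvem ligands, the Hvem ligand Cd160 (0.43 ± 0.13) and Pik3r1, a regulatory subunit of PI3-kinase (0.29 ± 0.07), rose, while Ptpn11, which encodes Shp2, fell slightly (-0.27 ± 0.07). Lta was low, at 1.78 to 2.41 CPM with anti-Btla + IFNb and 0.89 to 1.62 CPM with control Ig + IFNb, and the groups overlapped in Cd160. Ptpn6, which encodes Shp1, was nearly level, at 207, 199 and 209 CPM with anti-Btla + IFNb against 216, 202 and 199 CPM with control Ig + IFNb (adjusted p = 0.964). Tnfsf14 and Ltbr were not tested, since they did not pass the filter on low counts.

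Many genes listed as early responders to the antigen receptor fell. Of 35 such genes tested, 16 were lower (45.7%, against 17.4% of all genes) and 0 higher, with a median of -0.45. Not all were raised by stimulation here. Control Ig without IFNb against unstimulated cells raised 17 of the 35 and lowered 6. Egr2 (chr10:67535475-67542188), a zinc finger factor, had 18.8, 24.1 and 19 CPM with anti-Btla + IFNb, against 53.1, 73.0 and 56.8 CPM with control Ig + IFNb (-1.57 ± 0.13, 2.97-fold lower, adjusted p = 1.73e-06). Its highest anti-Btla + IFNb library lay well below its lowest control Ig + IFNb library, yet all 3 stayed above the unstimulated mean of 8.57 CPM. Egr1 (-1.46 ± 0.12) and the orphan nuclear receptors Nr4a1 (-1.40 ± 0.16), Nr4a2 (-1.96 ± 0.17) and Nr4a3 (-1.62 ± 0.16), which all respond to receptor signals, fell in the same way. Nr4a3 had 15, 18.8 and 15.1 CPM with anti-Btla + IFNb and 40.4, 58.5 and 50.7 CPM with control Ig + IFNb, so that the anti-Btla + IFNb libraries were near the unstimulated mean of 17.7 CPM. The leucine zipper factor Nfil3 fell by 1.91 ± 0.10 on the log2 scale (5.55, 2.97 and 4.10 CPM against 19.2, 12.5 and 15.5 CPM).

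**Figure D2:**
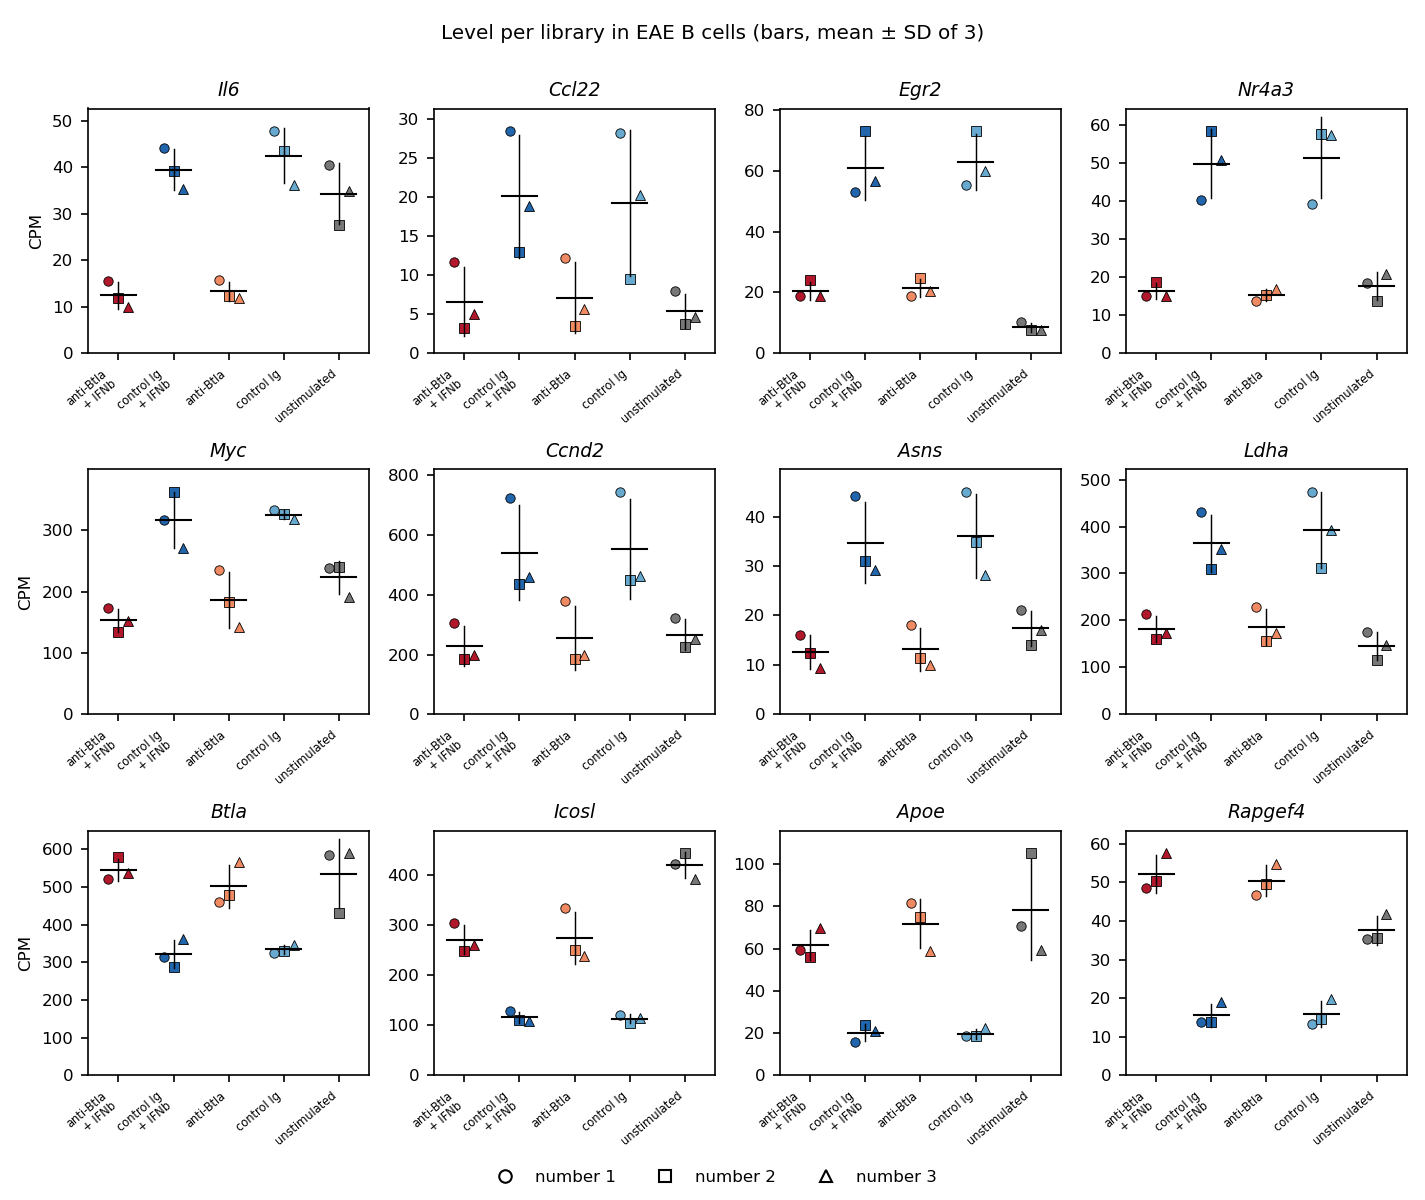
CPM per library (y axis, linear) of 12 genes in the 5 arms of EAE B cells (x axis), with the library number as the symbol, the mean as a horizontal bar and the SD over 3 libraries as a vertical bar. In each gene the anti-Btla + IFNb and control Ig + IFNb libraries do not overlap, as with Il6 at 9.91 to 15.6 CPM against 35.3 to 44.2 CPM and Rapgef4 at 48.5 to 57.7 CPM against 13.8 to 18.9 CPM.

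Of 28 genes of B cell receptor signalling, 17 were higher and 2 lower, with a median of 0.30. Syk, the kinase that binds the receptor's phosphorylated tails, had 427, 479 and 506 CPM with anti-Btla + IFNb and 292, 327 and 337 CPM with control Ig + IFNb (0.56 ± 0.06). The inhibitory coreceptor Cd22 (0.54 ± 0.06) and the inhibitory phosphatase Ptpn22 (0.48 ± 0.06) also rose, whereas the Src-family kinase Fyn fell (-0.47 ± 0.06). The groups did not overlap in any of these 4 genes.

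Several secreted and surface signals of activated B cells fell. Il6 (chr5:30013114-30019981), a cytokine that promotes T cell help and plasma cells, had 15.6, 11.9 and 9.91 CPM with anti-Btla + IFNb, against 44.2, 39.2 and 35.3 CPM with control Ig + IFNb (-1.69 ± 0.11, 3.22-fold lower, adjusted p = 3.54e-07). These 3 libraries were also below the unstimulated ones, at 40.6, 27.6 and 34.8 CPM. Ccl22, a chemokine for Ccr4+ T cells, had 11.6, 3.19 and 5.06 CPM against 28.5, 12.9 and 18.8 CPM (-1.69 ± 0.16), with number 1 the highest in both groups. Of 24 cytokine and chemokine genes 9 were lower and 3 higher (37.5% and 12.5%, against 17.4% and 13.6% of all genes tested), and without the block 3 were lower. Osteopontin (Spp1) fell most in this list (-2.19 ± 0.26, 3.03, 0.89 and 2.04 CPM against 10.4, 8.75 and 8.26 CPM).

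Of 26 costimulation and checkpoint genes 11 were lower and 4 higher (42.3% and 15.4%, the second near the 13.6% of all genes). Icosl (chr10:78069302-78083913), the ligand that engages Icos on helper T cells, had 303, 248 and 260 CPM with anti-Btla + IFNb, against 129, 110 and 109 CPM with control Ig + IFNb (1.22 ± 0.08, 2.34-fold higher, adjusted p = 5.02e-07). Its groups did not overlap, and both lay below unstimulated cells (419 CPM). The interleukin 2 receptor chain Il2ra (-1.18 ± 0.10), the adhesion receptor Cd44 (-0.71 ± 0.06), the costimulator Cd86 (-0.59 ± 0.09) and the early activation marker Cd69 (-0.47 ± 0.07) fell. Stimulation with control Ig had not raised Cd69 at this time (0.02 ± 0.07, edgeR adjusted p = 0.816). Its mean of 83.4 CPM with anti-Btla + IFNb lay below that of unstimulated cells (118.7 CPM). Cd86 had 97.4, 54.0 and 64.6 CPM with anti-Btla + IFNb and 149, 77.5 and 101 CPM with control Ig + IFNb, so the groups overlapped across numbers while each number was lower with anti-Btla.

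Growth genes decreased broadly. Myc (chr15:61985391-61990374), the transcription factor that drives ribosome production and metabolism in activated lymphocytes, had 172, 134 and 153 CPM with anti-Btla + IFNb, against 317, 363 and 271 CPM with control Ig + IFNb (-1.04 ± 0.12, 2.06-fold lower, adjusted p = 2.11e-05). Every anti-Btla + IFNb library was below every unstimulated library (192 to 239 CPM). Tfap4, a Myc target factor, fell (-0.78 ± 0.12), and the Myc antagonists Mxd4 (0.40 ± 0.07) and Mxi1 (0.26 ± 0.09) rose. However, of 13 genes of the Myc network 3 were higher and 2 lower (23.1% and 15.4%, against 13.6% and 17.4% of all genes). Only 1 was higher without the number 1 libraries and 0 without the block. The study itself singled out Myc, Il6, Ezh2 and Ldha as genes reduced in B cells, and all 4 fell here (median -1.02). They were chosen by the study on samples of this series, so their fall is not independent evidence of its direction.

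All 60 genes of ribosome biogenesis and RNA polymerase I were lower, against 17.4% of all genes tested, with a median of -0.67 and no overlap between the groups in any of the 60. Rrp1b, a nucleolar factor, had 64.5, 56.1 and 54.8 CPM against 119, 121 and 102 CPM (-0.96 ± 0.06). Of 56 cytosolic ribosomal protein genes 47 were lower and 0 higher (median -0.46), among them Rps2 (-0.80 ± 0.08) and Rps6 (-0.37 ± 0.05), but without the block 9 were lower. Of 26 translation factors 22 were lower, among them Eif3c (-0.95 ± 0.06) and the helicase Eif4a1 (-0.83 ± 0.06), and 2 were higher. The exons of Rps2 and Eif4a1 overlap those of other genes transcribed in the same direction, so their counts are less certain, as are those of Pde2a, Spp1, Hif1a and Ccr9.

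**Figure D3:**
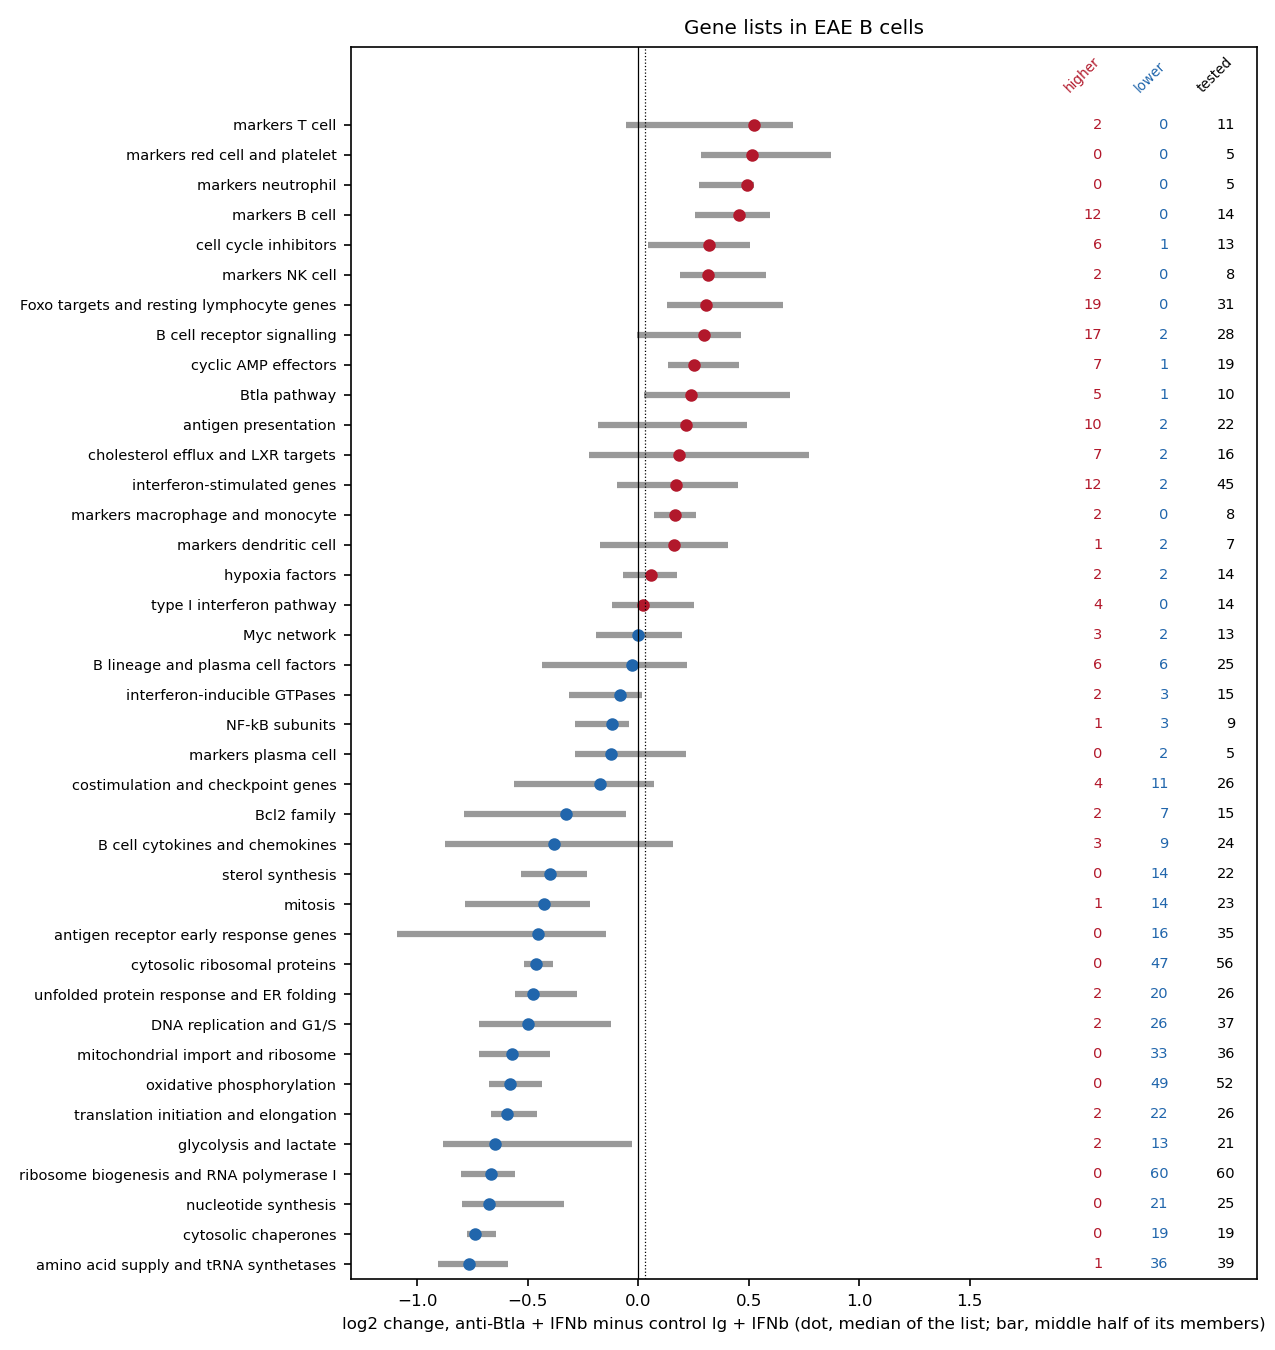
Median log2 change (dot) and interquartile range of the members (bar) for 39 gene lists, anti-Btla + IFNb minus control Ig + IFNb, with the number of members called higher, called lower and tested at the right. The dotted line is the median of all genes tested. The medians run from -0.76 for amino acid supply and tRNA synthetases to 0.46 for B cell markers and 0.52 for T cell markers, of which 2 of 11 were called.

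Amino acid, nucleotide and energy metabolism fell along with it. Of 39 genes of amino acid supply and tRNA charging 36 were lower and 1 higher, with a median of -0.76. Asns, asparagine synthetase, had 16.1, 12.5 and 9.32 CPM with anti-Btla + IFNb and 44.1, 31.0 and 29.2 CPM with control Ig + IFNb (-1.48 ± 0.11, 2.79-fold lower), and the serine synthesis enzyme Psat1 fell by 1.04 ± 0.08 on the log2 scale. Of 52 nuclear genes of oxidative phosphorylation 49 were lower (median -0.58), among them Uqcrq of complex III (-1.17 ± 0.11) and Cox5a of complex IV (-0.72 ± 0.06), and without the block 27. Of 36 genes of mitochondrial import and ribosome 33 were lower, led by the chaperonin Hspd1 (-1.09 ± 0.09). Of 21 glycolysis genes 13 were lower and 2 higher. Ldha, lactate dehydrogenase A, had 213, 161 and 173 CPM with anti-Btla + IFNb, against 430, 310 and 352 CPM with control Ig + IFNb (-1.0 ± 0.06). Hif1a, the hypoxia factor, was not called, at 243, 218 and 213 CPM against 302, 192 and 226 CPM (-0.08 ± 0.09, adjusted p = 0.562).

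Of 25 nucleotide synthesis genes 21 were lower and 0 higher (median -0.68). Srm, spermidine synthase, had 36.8, 29.7 and 29.5 CPM with anti-Btla + IFNb and 77.6, 73.7 and 66.1 CPM with control Ig + IFNb (-1.18 ± 0.07). Srm was counted in this list, although spermidine is a polyamine and not a nucleotide. The canonical E-box CACGTG, the site that Myc and other basic helix-loop-helix factors can bind, was searched in the 250 bases before the start of each gene in RefSeq. It reads the same on both strands. It was present in 6 of the 22 nucleotide synthesis genes with a RefSeq promoter (27.3%), 240 of 2333 genes lower with anti-Btla + IFNb (10.3%), 121 of 1598 higher (7.57%) and 4 of 53 ribosome biogenesis genes (7.55%), beside 873 of 11297 genes tested (7.73%) and 1978 of 32851 promoters in all (6.02%). The shares of the higher and of the ribosome biogenesis genes thus lay just below that of all genes tested. Other lists that fell varied, with 0 of 15 cytosolic chaperones, 6.67% of amino acid supply and 7.14% of ribosomal protein genes. Oxidative phosphorylation had 7.32%, sterol synthesis 14.3% and mitochondrial import and ribosome 18.8%. The Foxo target list, which rose, had 15.4%. Translation factors had 4 of 20, glycolysis 3 of 20, the unfolded protein response 14.3% and early response genes 13.8%. DNA replication had 6.67%, mitosis 5.26% and cytokines and chemokines 0 of 17. The Myc network, called in both directions, had 3 of 11 (27.3%). The lists that fell thus lay on both sides of the 7.73% of all genes tested. Whether the motif had a part in the fall was not tested. The nucleotide synthesis list and the motif were set side by side after values had been seen, and a match is a description of sequence only. Of the 6 genes (Atic, Dtymk, Impdh2, Nme1, Paics and Tyms), 3 carry the motif upstream of the transcripts of both annotations. These are shown 5′ to 3′ on the gene's own strand from GRCm38.p6, with the E-box in capitals, as examples of promoters of genes that fell together.
Tyms (chr5:30073657-30073710, minus strand, -0.79 ± 0.08): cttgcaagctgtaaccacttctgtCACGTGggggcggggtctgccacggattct
Paics (chr5:76951075-76951128, plus strand, -0.55 ± 0.07): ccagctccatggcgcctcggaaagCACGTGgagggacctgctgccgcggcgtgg
Dtymk (chr1:93802053-93802106, minus strand, -0.21 ± 0.07): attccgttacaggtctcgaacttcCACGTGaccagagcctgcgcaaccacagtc
The motif begins 61, 203 and 148 bases before the start. Tyms makes thymidylate and Dtymk phosphorylates it, while Paics acts in purine synthesis.

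Protein folding genes followed. All 19 cytosolic chaperone genes were lower (median -0.74). Hsp90ab1, a major cytosolic Hsp90, had 2772, 2083 and 2168 CPM with anti-Btla + IFNb and 4793, 4239 and 3775 CPM with control Ig + IFNb (-0.87 ± 0.07). Of 26 genes of the unfolded protein response and folding in the endoplasmic reticulum 20 were lower, among them Calr (-0.67 ± 0.07) and Hyou1 (-0.67 ± 0.07), and 12 without the block. The exceptions were Eif2ak3, the stress sensor Perk, at 129, 140 and 147 CPM against 66.2, 72.6 and 74.7 CPM (0.96 ± 0.08), and the oxidase Ero1lb (0.63 ± 0.06), which rose with no overlap. Of 22 sterol synthesis genes 14 were lower and 0 higher (median -0.40), among them Sqle (-0.52 ± 0.06).

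Many cell cycle genes were lower, with weaker support for mitosis. Ccnd2, the D-type cyclin of B cells, had 306, 185 and 197 CPM with anti-Btla + IFNb, against 724, 437 and 460 CPM with control Ig + IFNb (-1.24 ± 0.08, 2.35-fold lower, adjusted p = 4.89e-07), with no overlap and number 1 the highest in both groups. Of 37 genes of DNA replication and the G1/S step 26 were lower and 2 higher. Of 23 mitosis genes 14 were lower and 1 higher, but without the block 2 were lower. All 3 anti-Btla + IFNb libraries lay below all 3 control Ig + IFNb libraries in 5 of the 23, near the 20.6% of all genes. They lay above them in 1 of the 23, a smaller share than the 18.0% of all genes. Mki67, the proliferation marker Ki-67, had 66.1, 31.0 and 56.1 CPM with anti-Btla + IFNb and 118, 48.8 and 89.0 CPM with control Ig + IFNb (-0.72 ± 0.07), lower in each of 3 same-numbered pairs while the groups overlapped. Among 13 cell cycle inhibitors 6 were higher, including Cdkn1b (0.48 ± 0.07), Btg1 (0.51 ± 0.06) and Ccng2 (0.60 ± 0.07). Cdkn1a, the p53 target p21, fell (-1.35 ± 0.16), at 7.99, 5.20 and 4.55 CPM against 19.4, 14.7 and 11.3 CPM. Its exons share sequence with a gene on the opposite strand.

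Among the genes that rose most were some of trafficking, cyclic AMP signalling and lipid export. Rapgef4 (chr2:71981240-72257474), a cyclic AMP-gated activator of the adhesion GTPase Rap1, had 48.5, 50.4 and 57.7 CPM with anti-Btla + IFNb, against 13.9, 13.8 and 18.9 CPM with control Ig + IFNb (1.75 ± 0.08, 3.38-fold higher, adjusted p = 5.49e-08). Its libraries lay above the unstimulated ones too (35.3, 35.6 and 41.9 CPM). A gene on the opposite strand overlaps it, which holds for 46 of the 201 named genes, most of them not marked here. The phosphodiesterases Pde2a (1.58 ± 0.38), Pde7a (0.64 ± 0.08) and Pde4b (0.45 ± 0.07) and the adenylyl cyclase Adcy7 (0.60 ± 0.07) also rose, and of 19 cyclic AMP effectors 7 were higher and 1 lower.

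Of 31 Foxo targets and resting lymphocyte genes 19 were higher and 0 lower (median 0.31). S1pr1, the receptor that lets lymphocytes leave lymphoid organs, had 187, 215 and 231 CPM with anti-Btla + IFNb and 74.3, 71.7 and 89.2 CPM with control Ig + IFNb (1.43 ± 0.08, 2.69-fold higher). Its groups did not overlap, and the anti-Btla + IFNb libraries were at the level of unstimulated cells (mean of 223 CPM). The complement regulator Cd55 (1.08 ± 0.06) and the PI3-kinase inhibitor Pik3ip1 (1.05 ± 0.08) followed.

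Several genes of cholesterol export rose. Apoe (chr7:19696109-19699188), a lipid carrier, had 59.1, 56.0 and 69.9 CPM with anti-Btla + IFNb and 15.9, 23.9 and 20.8 CPM with control Ig + IFNb (1.63 ± 0.19, 3.10-fold higher). The sterol exporters Abca1 (1.26 ± 0.06) and Abcg1 (0.77 ± 0.14) and Mylip, which promotes decay of the low-density lipoprotein receptor (1.02 ± 0.08), also rose with no overlap. Of 16 genes of this list 7 were higher and 2 lower, and 5 and 1 without the block and 6 and 0 without the number 1 libraries. Apoe is also abundant in macrophages, and of 8 macrophage markers tested Lyz2 (13.1, 5.05 and 7.70 CPM against 6.15, 1.61 and 3.05 CPM, 1.32 ± 0.18) and Adgre1 (0.47 ± 0.12) rose, or 25% against 13.6% of all genes, and 1 marker was called without the number 1 libraries and 0 without the block. The summed macrophage markers were 46.5 to 70.4 CPM with anti-Btla + IFNb and 36.4 to 51.5 CPM with control Ig + IFNb, with C1qa, C1qb and C1qc below the filter, and their part in the Apoe change was not tested.

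Of 22 antigen presentation genes 10 were higher and 2 lower (45.5% and 9.09%, against 13.6% and 17.4% of all genes), and 8 and 1 without the number 1 libraries. H2-Ob, a chain of H2-O that restrains peptide loading, had 457, 528 and 515 CPM with anti-Btla + IFNb and 220, 203 and 265 CPM with control Ig + IFNb (1.13 ± 0.08). March1, a ubiquitin ligase that removes class II molecules and Cd86 from the surface (1.18 ± 0.07), the class II transactivator Ciita (0.90 ± 0.09) and the class II chain H2-Aa (0.50 ± 0.07) rose as well. Of 14 B cell markers 12 were higher and 0 lower, including Fcer2a (Cd23, 0.83 ± 0.07) and Ighd (0.60 ± 0.06), and their summed level was 14788 to 15873 CPM with anti-Btla + IFNb and 11608 to 12444 CPM with control Ig + IFNb, which places the cells as B cells in both groups. In such bulk libraries fewer cells of a type and less RNA per cell cannot be told apart. The 25 lineage and plasma cell factors were mixed, with 6 higher, 6 lower and a median of -0.03. Both shares lay above the 13.6% and 17.4% of all genes. Without the block 2 were higher and 4 lower, and without the number 1 libraries 3 and 5. Ikzf3 (0.54 ± 0.05) was among those that rose. The methyltransferase Ezh2 (-0.99 ± 0.08), Batf (-1.02 ± 0.12) and Xbp1 (-0.56 ± 0.08) were among those that fell. Among 15 Bcl2 family genes 7 were lower (46.7%, against 17.4% of all genes) and 2 higher (13.3%, near the 13.6% of all genes). Of these 2, 0 stayed higher without the number 1 libraries. The survival factor Bcl2l1 (-0.92 ± 0.10) and also the death factor Bcl2l11 (-0.33 ± 0.06) fell.

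Markers of other cells were low in all 6 libraries. The summed 11 T cell markers were 53.0 to 77.1 CPM with anti-Btla + IFNb and 45.3 to 56.7 CPM with control Ig + IFNb, of which Cd2, also present on mouse B cells, made 26.7 to 45.7 CPM with anti-Btla + IFNb and 17.2 to 26.7 CPM with control Ig + IFNb. Cd3e was at 0.37 to 0.72 CPM with anti-Btla + IFNb and 0.21 to 0.48 CPM with control Ig + IFNb. The 8 NK markers summed to 5.36 to 32.7 CPM with anti-Btla + IFNb and 4.79 to 21.6 CPM with control Ig + IFNb, and the 5 neutrophil markers tested to 11.1 to 15.9 CPM with anti-Btla + IFNb and 10.8 to 12.2 CPM with control Ig + IFNb. The 7 dendritic cell markers summed to 54.3 to 57.1 CPM with anti-Btla + IFNb and 52.2 to 54.5 CPM with control Ig + IFNb, and the 5 red cell and platelet markers to 4.55 to 5.79 CPM with anti-Btla + IFNb and 2.78 to 5.69 CPM with control Ig + IFNb. Called higher were the T cell genes Cd2 (0.71 ± 0.12) and Cd3d (0.52) and the NK genes Gzma (0.99) and Klrd1 (0.95), which were not called without the number 1 libraries, whereas 0 neutrophil and 0 red cell and platelet genes were called. The calls were 2 of 11 T cell and 2 of 8 NK markers, both shares above the 13.6% of all genes. Without the block 1 T cell and 0 NK markers were higher. Of the 7 dendritic cell markers Ccr9 (0.71 ± 0.10) was higher (14.3%, near the 13.6% of all genes). Bst2 and Zbtb46 were lower (28.6%, against 17.4% of all genes). Without the block 1 dendritic cell marker was higher and 0 lower. Of 5 plasma cell markers 2 were lower, Irf4 (-0.28 ± 0.06) and Xbp1. The part of these cells in the other changes was not tested.

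Within the interferon system most anti-Btla effects were small. Of 14 genes of the type I interferon pathway 4 were higher (28.6%, against 13.6% of all genes) and 0 lower (median 0.02). The 4 were Ifnar1 (0.19 ± 0.06), Jak1 (0.20 ± 0.05), Stat2 (0.30 ± 0.11) and Pias1 (0.29 ± 0.06), and without the block 1 was higher. Of 45 interferon-stimulated genes 12 were higher and 2 lower (26.7% and 4.44%, against 13.6% and 17.4% of all genes), with a median of 0.17. Without the block 3 and 0 were called, and without the number 1 libraries 10 and 2. Samd9l, an antiviral factor, had 661, 507 and 576 CPM with anti-Btla + IFNb and 425, 268 and 367 CPM with control Ig + IFNb (0.74 ± 0.07), with no overlap. The guanylate binding protein Gbp2 fell (-1.12 ± 0.19), at 158, 35.7 and 36.8 CPM against 307, 69.3 and 95.9 CPM. It was lower in each same-numbered pair while the groups overlapped through number 1. The 15 interferon-inducible GTPases did not fall as a family. Of these, 3 were lower, Gbp2 among them, and 2 higher, Gbp9 (0.52 ± 0.09) and Gvin1 (0.34 ± 0.10). Both shares lay near those of all genes, and without the block 0 were called.

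The same contrast in the EAE arms without IFNb used 6 other libraries. It gave 5124 called genes (30.1%), 2315 higher and 2809 lower. The genes called higher in both contrasts numbered 1616, or 70.0% of those with IFNb and 69.8% of those without, and those lower in both 2296, or 77.6% and 81.7%. Gm10247, a predicted gene with a mean of 0.15 CPM chosen after its values were seen, was the 1 gene called in opposite directions. Over 17007 genes the log2 changes of the contrasts had a Spearman rho of 0.72 and a Pearson r of 0.46, a description over genes measured in libraries of the same numbers. Il6 changed by -1.69 with IFNb and -1.68 without, Myc by -1.04 and -0.82, Btla by 0.77 and 0.58, and Rapgef4 by 1.75 and 1.67. The direct test of the difference between the contrasts called 0 genes (0.0%, 375 at an unadjusted p below 0.05). Its estimate (log2 ± SE) was -0.01 ± 0.16 for Il6, -0.22 ± 0.17 for Myc, 0.19 ± 0.14 for Btla and 0.08 ± 0.11 for Rapgef4. Missing the threshold does not show that the effects were equal. The 10 genes nearest to a difference were Gm28048, Gm48417, Igkv16-104, Phyh and Zfp433, with a higher change with IFNb, and Tbrg4, Gm14288, Dpagt1, Snx11 and Plxna3, with a lower one, all at an adjusted p of 1. Gm14288 had 0 CPM in all 3 anti-Btla + IFNb libraries and 22, 0 and 22.6 CPM in control Ig + IFNb libraries, on and off within 1 arm, so its fold is not given. DESeq2 called 4 predicted genes in this test (Gm14440, Gm28635, Gm45315 and Gm48431, named after their values were seen).

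**Figure D4:**
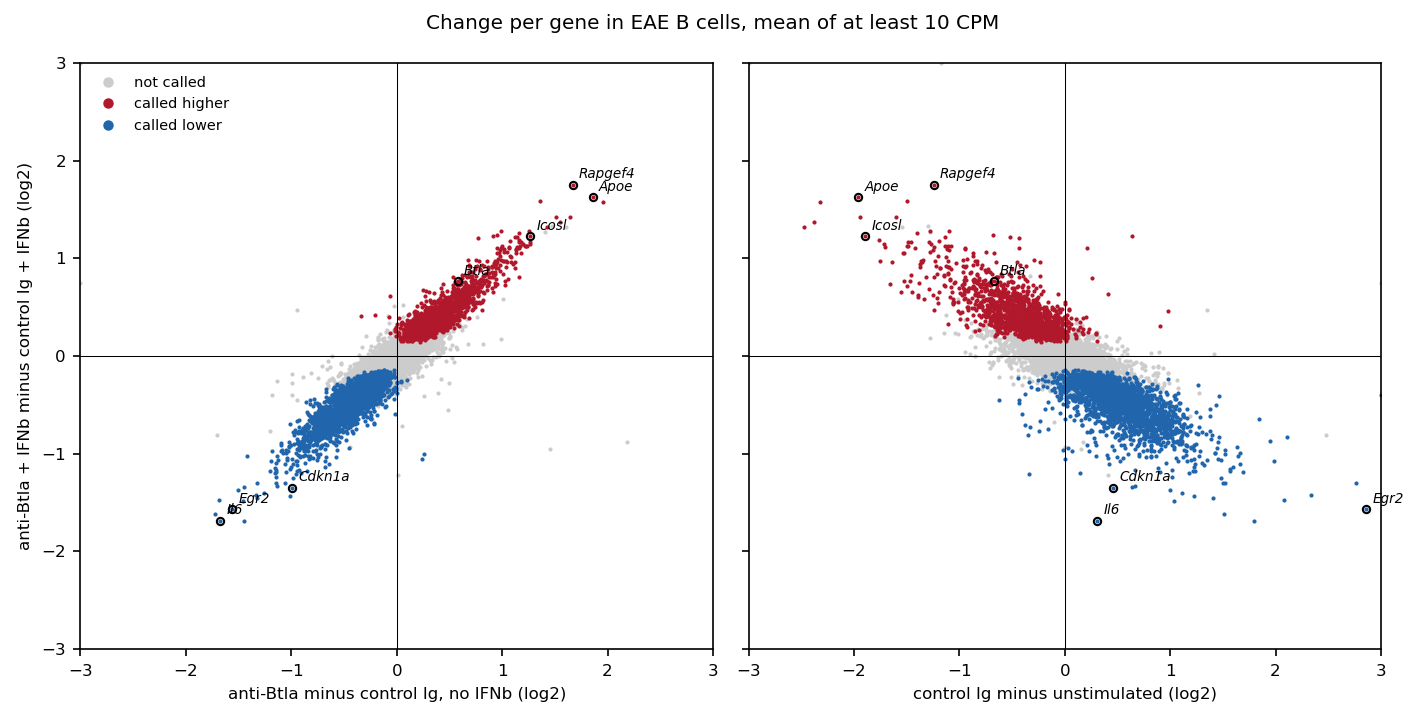
Log2 change of each gene with anti-Btla + IFNb against control Ig + IFNb (y axis) over its change with anti-Btla against control Ig without IFNb (left, x axis) and with control Ig stimulation against no stimulation (right, x axis), for the 8551 genes that averaged 10 CPM or more. The 4 genes beyond a log2 of 3 are drawn at the edge. The genes run along a rising diagonal on the left and a falling one on the right, where Il6 and Cdkn1a lie at -1.69 and -1.35 on the y axis with stimulation changes of 0.31 and 0.46.

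Anti-Btla changes ran opposite to those of stimulation. Control Ig without IFNb against unstimulated cells, a contrast added after values had been seen that shares no library with the 6, called 6766 genes (39.8%), 3576 higher and 3190 lower. Whether the unstimulated cells were cultured is not stated. Of the 2959 genes lower with anti-Btla + IFNb, 2396 (81.0%) were higher after stimulation, which is 67% of the genes stimulation raised. Of the 2309 genes higher with anti-Btla + IFNb, 1669 (72.3%) were lower after stimulation, or 52.3% of those stimulation lowered. The genes that stimulation raised had a median log2 change of 0.53 with stimulation and -0.40 with anti-Btla + IFNb, and those it lowered -0.53 and 0.35. Over all genes the Spearman rho was -0.70 and the Pearson r -0.55. In the same direction were 25 genes lower and 13 higher in both.

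In naive B cells the corresponding 6 libraries, fitted together with those of EAE in 30 libraries, gave 4713 called genes of 17341 (27.2%), against 5788 (33.4%) in EAE B cells. The genes called higher in both states numbered 1553, or 60.9% of those in EAE and 77.1% of those in naive cells, and those lower in both 2385, or 73.7% and 88.4%, and 0 were called in opposite directions. Il6 changed by -1.92 in naive cells, Egr2 by -1.19, Rapgef4 by 1.65 and Icosl by 1.03. Testing EAE against naive directly called 0 genes (0.0%, 687 at an unadjusted p below 0.05). Of 45 interferon-stimulated genes, 11 were higher and 2 lower in EAE in this 30-library fit, against 3 higher and 15 lower in naive cells (medians 0.17 and -0.31), and no member passed the test of the difference. Ddx60, an antiviral helicase, changed by -0.21 in naive cells, with a difference of 0.93 between EAE and naive, and had, with Phf11c and Trim30b, one of the 5 smallest p-values for a higher change in EAE (adjusted p = 1).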

How the data were processed

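Libraries were quantified by the authors with Salmon on GRCm38 (version not given in the sources used here), and the deposited tables hold estimated counts per transcript. These were summed to 35498 GENCODE M21 genes and rounded. The share of counts without a gene was 0.158 to 0.21%. Genes were filtered with filterByExpr (minimum count of 10), scaled by TMM and tested with edgeR 4.0.16 (R 4.3.3, quasi-likelihood F-test, Benjamini-Hochberg adjusted p below 0.05). The 15 EAE B cell libraries were fitted together with the library number as a block, and 30 B cell libraries for the comparison with naive cells. Same-numbered libraries of the 2 arms compared deviated together (correlations of 0.767, 0.255 and 0.149), and the study's models hold the replicate. P-values measure the spread between libraries, which may be technical, since no source says they came from separate mice. Depth was 6.7 to 62.1 M estimated counts in EAE B cells, and low genes of the shallow libraries are the least precise.

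The genes and lists were chosen with earlier results of these data known. Named genes were the 12 largest increases and decreases at a mean of at least 10 CPM with 3 of 3 same-numbered pairs in 1 direction, up to 4 members of each list by p, all members of the Btla, type I interferon and study lists, Hif1a, and the 5 smallest p-values per direction of each difference. Isg15, Ifit1, Zbp1, Abcg1, Tyms, Paics, Dtymk and the genes of the last section were chosen after their values were seen. Promoter sequences are from RefSeq (GRCm38.p6). Alternatives were no block, DESeq2 1.42.0, RLE scaling, other filters, thinning to 6.68 M counts, the 6 libraries alone, and leaving out each number or library. Some named genes are not reported here.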

Additional observations from a re-analysis of the deposited data

Results flagged for a closer look

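In a pair of genes all 3 same-numbered pairs moved one way in one condition and the opposite way in the other, which drew attention to them. Snx11, a sorting nexin, changed by -0.145 (log2) with anti-Btla + IFNb and by 0.2 with anti-Btla without IFNb in EAE B cells, a difference of -0.345, and by -0.151 in EAE and 0.0196 in naive B cells with IFNb, a difference of -0.171. Tm6sf1 changed by 0.149 in EAE and -0.129 in naive B cells with IFNb, a difference of 0.278, and shares exon sequence with a neighbouring gene. The edgeR tests of these differences gave an adjusted p of 1.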

How the results depend on the processing

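The contrast with IFNb called 2794 genes without the replicate block and the contrast without IFNb 2775, against 5268 and 5124 with it, and the share of calls that were higher was 38.5% without the block and 43.8% with it. DESeq2 called 5509 genes with IFNb, and the other scalings and filters stayed within 1.5 times. Leaving out 1 number or library gave 3029 to 4543 genes with IFNb and 2773 to 4450 without IFNb. The difference between the IFNb arms called 0 genes by edgeR, 4 by DESeq2, 2 with no filter (Gm14288 and AC133103.5) and 0 to 1 with 1 number or library left out. The difference between EAE and naive cells called 0 by edgeR and by DESeq2, 3 with no filter (Gm7324, Gm14438 and Gm49496) and 0 to 1 with 1 library left out, the 1 without naive anti-Btla + IFNb library 2 being Gm10175. These genes are predicted models, and the cause was not tested. Of 151 named genes called, 121 kept the call without the block, 150 with DESeq2, 145 after thinning and 136 to 139 without 1 number, and 0 reversed in any alternative run.

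The limits lie in 3 libraries per arm, of which the shallowest held 13 M counts, and in the number 1 libraries, which stood apart in interferon-regulated and NK genes.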

Other observations

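A small set of genes was called in the same direction with anti-Btla + IFNb and with stimulation. Of the genes lower with anti-Btla + IFNb, 25 were also lower after stimulation, 19 of them at a mean of at least 10 CPM. Trib3, a pseudokinase induced by amino acid stress, had 9.82, 7.13 and 6.49 CPM with anti-Btla + IFNb and 19.1, 18.2 and 16.7 CPM with control Ig + IFNb (-1.21 ± 0.11), while stimulation changed it by -0.34. The groups did not overlap. Ppp1r15a, which restores translation after stress (-0.73 ± 0.13), the amino acid transporter Slc1a4 (-0.70 ± 0.10) and the NF-kB inhibitors Tnfaip3 (-0.45 ± 0.06) and Nfkbia (-0.32 ± 0.09) were in the same set.

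Other genes changed with anti-Btla + IFNb and were not called after stimulation. In 114 of the lower and 111 of the higher genes the unadjusted edgeR p of stimulation was above 0.5. Sesn2, a stress-induced inhibitor of mTORC1, had 11.2, 12.3 and 10 CPM with anti-Btla + IFNb and 23.1, 23 and 19.1 CPM with control Ig + IFNb (-0.97 ± 0.10). Gadd45b (-0.94 ± 0.11), Hmox1 (-0.98 ± 0.18) and Siah2 (-0.64 ± 0.08) fell as well. Among genes that rose with both anti-Btla + IFNb and stimulation, 13 in all, were Crisp3 (1.23 ± 0.15) and Emb (0.64 ± 0.12). Crisp3 had 19.2, 48.3 and 33.1 CPM with anti-Btla + IFNb and 7.47, 20.7 and 15.4 CPM with control Ig + IFNb, overlapping across numbers but higher in each pair.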
